A study of Mus musculus with 2 samples.

Results

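The expression of 10 genes of the insulin-like growth factor (IGF) system was followed in primary mouse keratinocytes: the ligand gene Igf1, the receptor genes Igf1r and Insr, the receptor substrate genes Irs1 and Irs2, and the binding protein genes Igfbp2, Igfbp3, Igfbp4, Igfbp5 and Igfbp6. They were chosen by name, as the probe sets whose only gene symbol in the platform annotation was that of a listed gene. The genes were listed with earlier results of these data known. This gave 26 probe sets for the 10 genes, out of 34945 probe sets with 1 symbol and 18193 genes on the array. On this array a transcript is read by sets of short probes, each set giving a single signal.

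IGF1 and IGF2 are small secreted hormones that act on the IGF1 receptor, a tyrosine kinase closely related to the insulin receptor. The activated receptors phosphorylate the substrates IRS1 and IRS2, which recruit phosphatidylinositol 3-kinase and so activate AKT, and AKT keeps FOXO transcription factors out of the nucleus. IGF binding proteins hold IGFs outside the cell with high affinity, and proteases that cut them release the ligand. In skin, the IGF1 receptor of keratinocytes supports proliferation and survival, and much of the IGF1 that reaches it is made by fibroblasts of the dermis.

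The study compared keratinocytes, the main cells of the epidermis, cultured from newborn C57BL/6 mice that were labelled as lacking Med1 in those cells or as controls. MED1 belongs to Mediator, a large complex through which transcription factors act on RNA polymerase II. Cells were grown as a primary culture on collagen in CnT07 medium and were not treated further. The control culture was titled MED1flox/flox, was called wild-type in its source and genotype labels, and came from a littermate according to the series title. The other culture came from MED1epi-/- mice, which carried K5Cre, a Cre recombinase under the keratin 5 promoter that is active in basal keratinocytes, together with MED1flox/flox. The sources used here do not say whether a culture pooled several animals. RNA of each culture was read on 1 Affymetrix array, so there was no replicate, no test and no spread between cultures, and having 1 array per group limits the precision of every value.

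The arrays gave Med1 signal against the direction of the label. All 7 Med1 probe sets read higher on the array labelled MED1-null, with log2 ratios of 0.55 to 1.57 over the 6 that were measured. The sources used here do not place these probe sets relative to the deleted part, so they check nothing about the deletion, and the name "array labelled MED1-null" is used throughout. Sex-linked transcripts also differed, with Xist at 5461 on the control array and 55.7 on the other, and the Y-linked Eif2s3y at 4.2 and 2164. The Y-linked Kdm5d (1.5 and 380.9) and Uty (24.5 and 221.7) went the same way. By these transcripts the control culture read as female and the other as male. Genotype label and sex therefore cannot be told apart for any ratio given here. For the Gapdh controls, signal at the 3′ end over that at the 5′ end was 0.762 and 0.767. The keratinocyte genes Krt5 (26821 and 32220) and Krt14 (32905 and 36849) were high on both arrays, and 11 of 13 keratinocyte markers with a probe set were measured. Krt15 and Krt1 were below the floor on both arrays.

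Low signals of this array type are noisy, and those under 67.7, the median of all probe sets over both arrays, were set to this floor before log2 ratios were computed. A gene under the floor on each array was treated as not measured. For a gene under it on 1 array the fold is a bound, written "at least" before that gene's own fold. The phrase "at least 2-fold" names the threshold used for counting and marks no bound. Ratios are those of the array labelled MED1-null over the control array. Among 11621 measured genes, 1.63% were higher by 2-fold or more and 2.23% were lower by 2-fold or more, and the median log2 ratio was 0.06. The lower genes made up 57.7% of those beyond 2-fold, 68.7% when a lowess curve was subtracted, and 45.5% or 46.0% with the floor at the 25th percentile or none, so which direction held more genes turned with the floor. Probe sets of the same gene had a pooled SD of 0.31 in log2 ratio (1.24-fold) over 4916 genes, which measures differences between probe sets and not between cultures.

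The binding protein genes went apart on these arrays while the receptor genes differed little. Of the 9 measured genes of the 10, Igfbp4 was at least 2-fold higher, Igfbp2 and Igfbp5 were at least 2-fold lower, and 6 lay within 2-fold. The median log2 ratio of the 9 was -0.14, with 3 above 0 and 6 below. Among all measured genes 42.9% lay below 0. These counts are small.

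**Figure D1:**
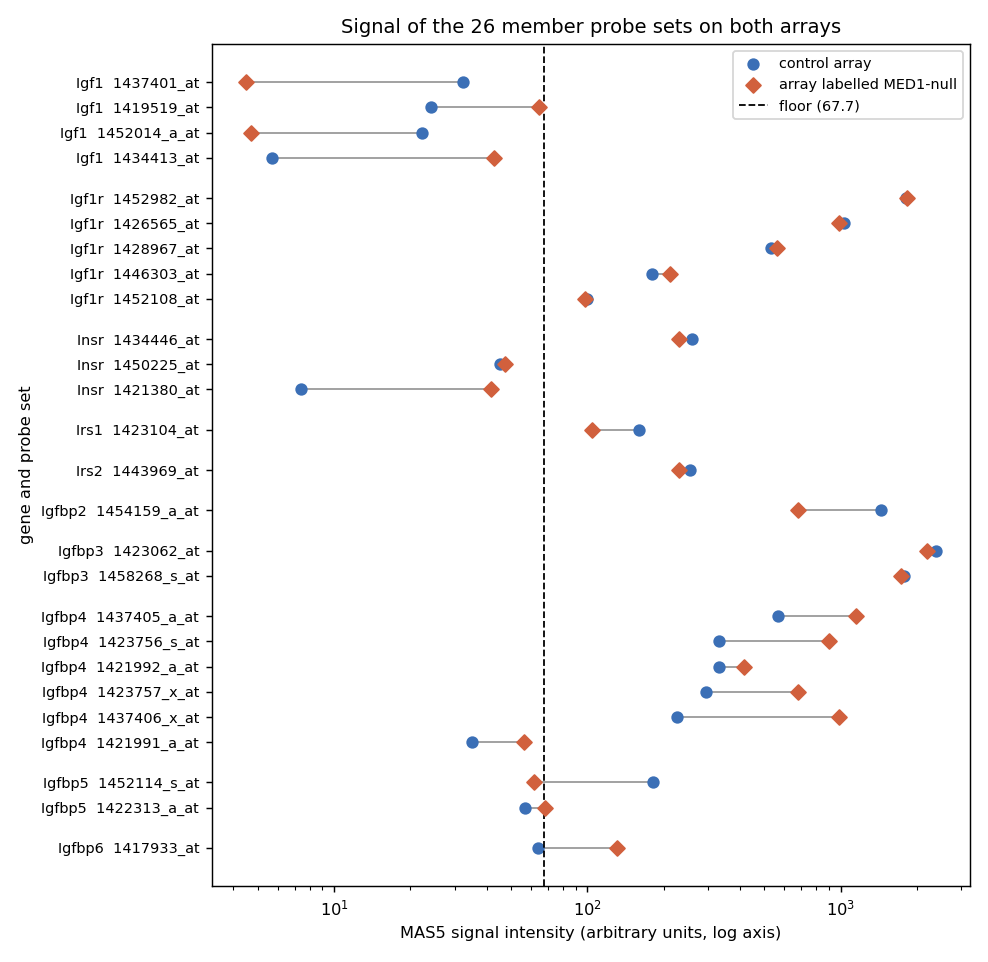
MAS5 signal intensity (log axis) of each of the 26 probe sets of the 10 genes, with the control array as blue circles, the array labelled MED1-null as orange diamonds and the floor of 67.7 as a dashed line. All 5 Igf1r probe sets have nearly the same signal on both arrays, the Igfbp4 probe sets lie further right on the array labelled MED1-null, and all 4 Igf1 probe sets lie left of the floor.

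Igf1, the ligand gene, was not measured on either array. Its 4 probe sets read from 5.7 to 32.3 in control cells and from 4.5 to 64.6 on the other array, all below the floor. They did not go the same way between the arrays, so no direction can be given. The other ligand genes with a probe set were Igf2, which encodes the fetal growth factor IGF2, and Ins2, which encodes insulin. Igf2 read 147.1 and 703.8 by its measured probe set, 4.78-fold higher (log2 ratio 2.26), and its other probe set read 2.3 and 4.2. Ins2 was below the floor on both arrays.

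The receptor genes had closely similar signals on both arrays. Igf1r, which encodes the IGF1 receptor, read 1812 in control cells and 1832 on the array labelled MED1-null by its brightest probe set. Its other 4 probe sets read 1035 and 982.2, 530.4 and 563.0, 179.4 and 211.4, and 100.1 and 97.7. The log2 ratios of the 5 ran from -0.08 to 0.24, all smaller than the SD between probe sets of a gene. Insr, which encodes the insulin receptor, read 258.4 and 229.1 by its measured probe set (1.13-fold lower, log2 ratio -0.17), and its other 2 probe sets were below the floor. Igf2r, the receptor that takes up IGF2 for degradation, was 1.27-fold higher at 1189 and 1514, and its second probe set had a log2 ratio of 0.08.

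The substrate genes each had 1 probe set and read lower by different amounts. Irs1 read 160.2 and 104.6, 1.53-fold lower (log2 ratio -0.61), and 6.62% of measured genes had a ratio as low or lower. Irs2, which is also repressed by insulin through FOXO factors in liver, read 255.0 and 230.7, 1.11-fold lower (log2 ratio -0.14). The difference of Irs1 was larger than the SD between probe sets and that of Irs2 was smaller. Both genes read under 4 times the floor, a range in which 4.61% of 3428 measured genes were beyond 2-fold.

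**Figure D2:**
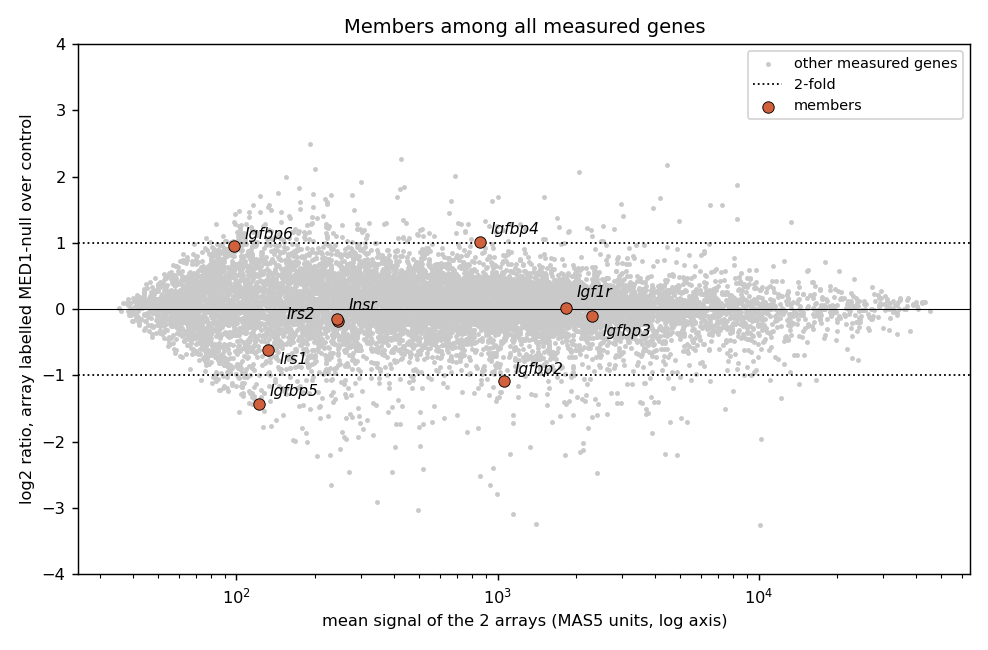
Log2 ratio of the array labelled MED1-null over control against mean signal of the arrays (log axis) for every measured gene (grey) and the 9 measured members (orange), with dotted lines at 2-fold. Igfbp4 and Igfbp6 lie near the upper line, Igfbp2 and Igfbp5 lie below the lower line, and Igf1r, Igfbp3, Insr and Irs2 lie close to 0; 2 genes lie beyond the plotted range of -4 to 4.

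Igfbp2 and Igfbp5 were the binding protein members at least 2-fold lower. Igfbp2 encodes a binding protein with a preference for IGF2, and its single probe set read 1439.9 in control cells and 676.4 on the array labelled MED1-null. This was 2.13-fold lower (log2 ratio -1.09), a ratio reached in that direction by 1.82% of measured genes. Among the 4235 genes of similarly high signal, at 16 times the floor or more on the higher array, 2.36% were at least 2-fold lower.

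Igfbp5 encodes a binding protein that also attaches to extracellular matrix, and its probe sets disagreed. The brighter, of the type _s_at, read 182.2 in control cells and 61.5, under the floor, on the other array, at least 2.69-fold lower. The second, of the type _a_at, read 56.8 and 68.2, close to the floor on both arrays. In this signal range, under 4 times the floor, 2.19% of genes were at least 2-fold lower. The suffix _s_at marks probes that match transcripts of more than 1 gene, so the lower reading of Igfbp5 rests on a probe set that may not be specific to it. With probe sets of the suffixes _s_at and _x_at left out, the log2 ratio of Igfbp5 was 0.01.

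Igfbp4 read higher by all of its measured probe sets, although by unequal amounts. It encodes a binding protein that in most settings restrains IGF action until the protease PAPP-A cuts it. The brightest probe set read 567.0 in control cells and 1148.5 on the array labelled MED1-null, 2.03-fold higher (log2 ratio 1.02), and 0.968% of the genes at 16 times the floor or more were at least 2-fold higher. The others read 331.5 and 898.4, 331.1 and 416.3, 295.4 and 678.6, and 226.9 and 982.4. Their log2 ratios with the first ran from 0.33 to 2.11, and 4 of the 5 measured probe sets passed 2-fold. Of these 4, 3 were of the types _s_at or _x_at, which can also detect other transcripts, and the 2 measured probe sets of the type _a_at had log2 ratios of 1.02 and 0.33. The sixth, at 35.1 and 56.4, was below the floor on both arrays. Of 21195 measured probe sets with 1 symbol, 1.82% were higher by 2-fold or more and 2.08% lower by 2-fold or more. The 4 Igfbp4 probe sets were the only ones of the 19 measured member probe sets that were at least 2-fold higher, and they read the same gene. By the brightest probe set the ratio was just under 2-fold after each rescaling of the arrays, at 0.96 with the median ratio set to 0, 0.98 after quantile normalization and 0.96 with a lowess curve subtracted.

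Igfbp6, whose product binds IGF2 far more tightly than IGF1, read 63.9, below the floor, and 131.2. This was at least 1.94-fold higher (log2 ratio 0.95), and without the floor the log2 ratio was 1.04. Igfbp6 has 1 probe set, and in its signal range 2.42% of genes were at least 2-fold higher. Igfbp3, the main carrier of IGFs in blood, read 2380.5 and 2203.1 by its brightest probe set and 1787.7 and 1728.5 by the other. Both Igfbp3 log2 ratios, -0.11 and -0.05, were smaller than the SD between probe sets.

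The 250 bases before the annotated start are shown for the binding protein genes whose ratios were farthest from 0 (Igfbp2, Igfbp5, Igfbp4 and Igfbp6). They come from RefSeq on GRCm38.p6, which listed a start for 9 of the 10 genes, and are given 5′ to 3′ along the gene. The Igfbp2 stretch is chr1:72824230-72824479 on the plus strand, and that of Igfbp5 is chr1:72874866-72875115 on the minus strand. The Igfbp4 stretch is chr11:99040994-99041243 on the plus strand, and that of Igfbp6 is chr15:102143936-102144185 on the plus strand. The start used for Igfbp4 differs from that of the gene in the RefSeq table, as do those used for Igf1 and Igfbp3. Capitals mark matches on either strand to the 6 motifs described after them.
Igfbp2: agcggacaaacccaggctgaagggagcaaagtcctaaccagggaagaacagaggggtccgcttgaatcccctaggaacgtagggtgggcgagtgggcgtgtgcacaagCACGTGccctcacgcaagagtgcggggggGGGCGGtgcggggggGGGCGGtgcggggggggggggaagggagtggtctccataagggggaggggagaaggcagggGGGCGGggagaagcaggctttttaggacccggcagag
Igfbp5: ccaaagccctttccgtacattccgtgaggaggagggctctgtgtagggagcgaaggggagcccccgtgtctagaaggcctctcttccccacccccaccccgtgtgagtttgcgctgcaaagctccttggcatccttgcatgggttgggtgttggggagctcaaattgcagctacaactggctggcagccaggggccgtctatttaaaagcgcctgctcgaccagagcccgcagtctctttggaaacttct
Igfbp4: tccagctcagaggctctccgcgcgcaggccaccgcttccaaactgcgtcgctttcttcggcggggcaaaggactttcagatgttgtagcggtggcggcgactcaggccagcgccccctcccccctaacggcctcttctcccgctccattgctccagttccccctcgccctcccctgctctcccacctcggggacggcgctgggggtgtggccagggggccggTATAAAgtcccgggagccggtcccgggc
Igfbp6: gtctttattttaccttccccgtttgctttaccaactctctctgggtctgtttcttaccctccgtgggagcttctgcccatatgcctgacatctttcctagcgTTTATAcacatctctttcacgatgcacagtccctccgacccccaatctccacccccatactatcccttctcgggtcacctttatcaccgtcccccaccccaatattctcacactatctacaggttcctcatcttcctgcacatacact

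The motifs searched were the TATA box TATAAA, the nuclear receptor half-site AGGTCA, the AP-1 site TGANTCA, the GC box GGGCGG, the E-box CACGTG and the FOXO site GTAAACA, on both strands. No match overlapped another. The Igfbp2 stretch held 3 GC boxes, a motif found in 32.7% of 32851 such stretches, and 1 E-box, found in 6.02%. The Igfbp4 stretch held a TATA box that began 28 bases before the start, and that of Igfbp6 held 1 on the opposite strand, 148 bases before the start. A TATA box was found in 12.4% of all stretches. The Igfbp5 stretch held none of the 6 motifs, and AGGTCA, found in 14% of stretches, matched none of these 4. Igfbp2 was 67.2% G or C, Igfbp4 69.2%, Igfbp5 58.8% and Igfbp6 49.6%, against a median of 52.4% over all stretches. The Irs1 and Irs2 stretches, which are not shown, held 2 and 1 GC boxes and an E-box each, the motifs also found in that of Igfbp2. GC boxes were also found in the stretch of Igf1r, whose log2 ratio was 0.015, together with AGGTCA. That of Igf1 held AGGTCA and an AP-1 site, a motif found in 6.75% of stretches, and that of Igfbp3 held none of the 6 motifs. A link between motifs and ratios was not tested.

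Markers of fibroblasts and of melanocytes read mostly lower, beside 42.9% of all measured genes below 0. Among the binding protein members, Igfbp2 read lower, and Igfbp5 did so only by its probe set of the type _s_at. Igfbp4 and Igfbp6 read higher (log2 ratios 1.02 and 0.95). Of 15 fibroblast markers 11 were measured, 10 of them with a ratio below 0 and 3 at least 2-fold lower, beside 2.23% of all measured genes. The 3 markers were the filament gene Vim (2602 and 979.7) and the matrix genes Sparc (2709 and 1034) and Fn1 (1149.5 and 477.7). The second Fn1 probe set had a log2 ratio of -0.35, within 2-fold. The summed signal of all 15 was 7499 in control cells and 3209 on the array labelled MED1-null, 2.34-fold lower. Those 3 genes, which many cell types express, gave 6460 and 2491 of it, and the other 12 summed to 1038 and 718.2, 1.45-fold lower. The collagen gene Col1a1, the receptor gene Pdgfrb and the surface protease gene Fap were below the floor on both arrays, Col3a1 read 120.8 and 35.5, and no marker was listed at 0. The measured fibroblast marker with a ratio above 0 was the collagen gene Col1a2, at 80.3 and 115.3 (1.44-fold higher). The 10 melanocyte markers, all measured, summed to 28849 and 20928, with 8 below 0 and 2 at least 2-fold lower. Of 6 leukocyte markers 2 were measured, 1 above 0 and 1 below, and of 5 endothelial markers 1 was measured, with a log2 ratio of -0.25. The 13 keratinocyte markers summed to 142978.5 and 165959.5. Of the 11 measured, 10 had a ratio above 0, beside 6632 of the 11621 measured genes. All 11 lay within 2-fold, and their median log2 ratio was 0.36. The part of fibroblasts or melanocytes in the readings of the members was not tested. In such bulk cultures fewer cells of a type and less RNA per cell cannot be told apart.

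Of the other ligands, receptors and binding proteins, 5 of 11 were measured, with Igf2 at least 2-fold higher, Igfbp7 at least 2-fold lower and a median log2 ratio of 0.35. Igfbp7, a secreted protein that binds IGFs only weakly, read 14928 and 7098, 2.10-fold lower (log2 ratio -1.07). Its second measured probe set had a log2 ratio of -0.86. The IGF2 mRNA-binding protein gene Igf2bp3 read 1192.5 and 1525, 1.28-fold higher, and all 6 of its probe sets had ratios above 0. Igfbp1, Igfals and Insrr were below the floor on both arrays.

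The measured signalling genes below the receptors lay within 2-fold, as did 11172 of the 11621 measured genes on the array. Such a result is therefore not particular to this list. Of 38 listed, 32 were measured, 16 had a ratio above 0 and 16 below, beside 42.9% of all measured genes below 0. The median log2 ratio was -0.01. The farthest from 0 was Eif4ebp1, which encodes the translation repressor 4E-BP1 that mTOR inactivates, at 10634 and 6056 (1.76-fold lower). Pik3cb, a catalytic subunit of phosphatidylinositol 3-kinase, read 1163 and 713.5 (1.63-fold lower), and Pik3r3, a regulatory subunit, read 144.2 and 91.0. Sos1, the exchange factor that links receptors to Ras, read 422.3 and 674.4 (1.60-fold higher), with probe sets from -0.37 to 0.68. Akt1, which encodes the main AKT kinase, read 2530.5 and 2499, with probe sets from -0.02 to 0.54, and Foxo1 read 1075 and 932.0.

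A list of proteases that can cut IGF binding proteins, with the stanniocalcins that inhibit some of them, had 8 of 13 genes measured. Of these, 3 were at least 2-fold lower, beside 2.23% of all measured genes, and the median log2 ratio was -0.28. This list, like the others, was chosen with earlier results of these data known. Its count beside that share is therefore not an independent comparison. The matrix metalloproteinase gene Mmp3 read 2549 and 269.7 (9.45-fold lower), Adam12 read 652.0 and 195.4 (3.34-fold lower) and Mmp2 read 189.4 and 90.9 (2.08-fold lower). The second Mmp2 probe set had a log2 ratio of -0.70, within 2-fold. Mmp9 differed in the other direction, at 288.5 and 536.9 (1.86-fold higher). The second Mmp9 probe set had a log2 ratio of 1.02, beyond 2-fold. The measured inhibitor gene, Stc2, read 208.8 and 158.9, and the log2 ratios of its probe sets ran from -1.21 to -0.16. Pappa, which encodes the protease of IGFBP4, and its relative Pappa2 were below the floor on both arrays. Most of these proteases have many other substrates.

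Genes known as FOXO targets, which insulin and IGF signalling represses in several tissues, mostly read lower. Of 18 listed, which include Insr and Irs2, 13 were measured. Of these, 10 lay below 0 and 3 above, 2 were at least 2-fold lower and none was at least 2-fold higher, beside 42.9% below 0 and 2.23% at least 2-fold lower among all measured genes. Their median log2 ratio was -0.43 against 0.06 for all measured genes, and it shrank to -0.17 when the median over each gene's probe sets was used, to -0.16 with the floor at the 25th percentile and to -0.14 with no floor. Fbxo32, a ubiquitin ligase gene, read 305.3 and 109.6 (2.79-fold lower) and the transcriptional coregulator gene Cited2 read 2891 and 1386 (2.09-fold lower). The cyclin gene Ccng2 read 9642 and 5928.5 (1.63-fold lower) and the catalase gene Cat 2181 and 1503. Other pathways also act on these genes.

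**Figure D3:**
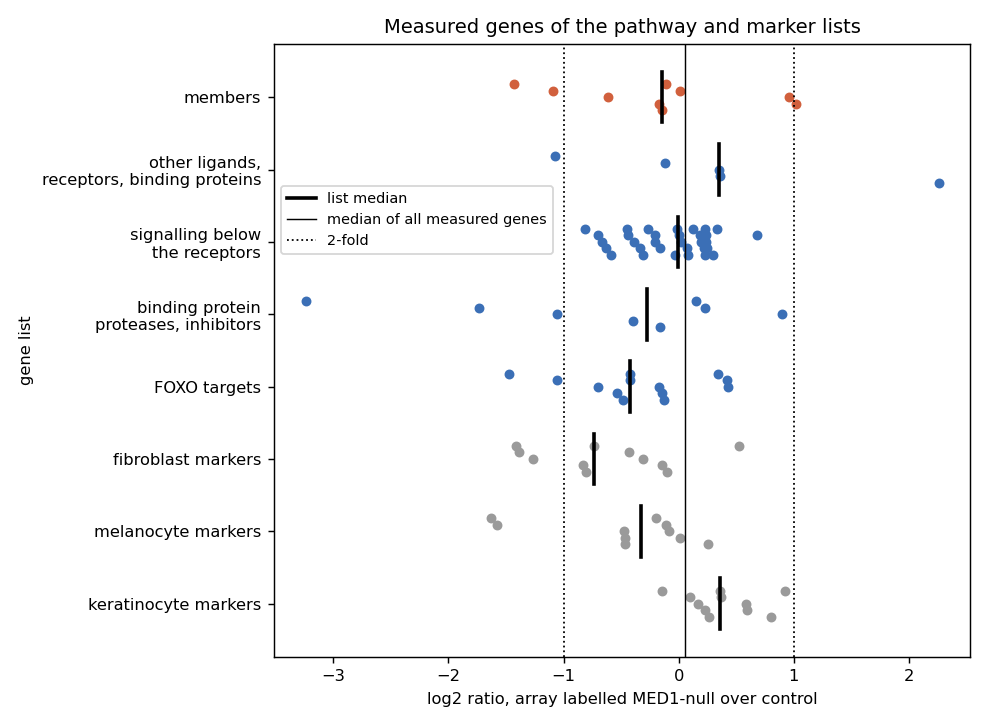
Log2 ratio of the array labelled MED1-null over control for each measured gene of the members, the other pathway lists and the marker lists (points), with the median of each list as a thick bar, the median of all measured genes as a thin line and 2-fold as dotted lines. The signalling genes lie within 2-fold around a median of -0.01, while the medians of the FOXO targets (-0.43) and the fibroblast markers (-0.74) lie below that of all genes.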

How the data were processed

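The 2 samples are Affymetrix mouse 3′ expression arrays, 1 per group, grouped by the genotype label. The intensity values that the authors deposited are linear signals, 1 for each probe set, computed by MAS5, per the submitters' processing notes, with GeneChip Operating Software named in the design text and no version given in the sources used here. Their mean after trimming 2% at each end was 500 on both arrays, so each had been scaled as a whole. Because MAS5 corrects for mismatch probes, low signals are noisy. Detection calls were not used here.

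In GEO's platform annotation a single symbol was given for 34945 probe sets, several for 932 and none for 9160, beside 64 controls. The Entrez IDs of all 10 members were in the RefSeq table of GRCm38.p6. A gene was represented by its probe set with the highest mean signal, signals under 67.7 were set to 67.7, and genes beyond 2-fold in each direction were counted. No test was possible. Members and lists were chosen with earlier results of these data known. Named genes were the members, Med1, up to 4 per other list farthest from 0, and genes whose level a statement turns on, which were chosen after their values were seen. Counting was tested on simulated data with differences well beyond 2-fold, in genes above 4 times the floor. That simulation does not cover ratios near 2-fold or low signals. Listed genes without a probe set of their own symbol were not analysed here. Analyses used Python 3.11.15, pandas 2.3.3 and statsmodels 0.14.6.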

Additional observations from a re-analysis of the deposited data

How the results depend on the processing

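No paired analysis was possible because each group has 1 array, and no replicate could be left out for the same reason. Alternatives changed the floor (25th percentile, 18.1; 75th percentile, 434.6; none), the scaling of the arrays, the probe set that stands for a gene, or left out probe sets with shared-sequence suffixes. The alternative without only _s_at and _x_at probe sets was chosen after seeing the data. Log2 ratios and medians moved by less than the SD between probe sets count as unmoved. Counts were judged by their ratio to the main count, so not every small change in a count is given.

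Of the members, 3 were at least 2-fold higher with the floor at the 25th percentile or with none, where Igf1 and Igfbp6 pass beside Igfbp4, and 0 after each of the 3 rescalings or without _s_at, _x_at and _a_at probe sets, a setting that leaves no probe set for Igfbp2, Igfbp4 or Igfbp5. Those at least 2-fold lower numbered 1 with the 75th percentile floor, which leaves 4 members measured, with the median over probe sets, and without _s_at and _x_at probe sets, and 0 without all 3 suffixes. Igfbp5 reversed to 0.011 without _s_at and _x_at probe sets and was -0.709 as the median over probe sets. Igfbp2 stayed between -1.153 and -1.090 in log2 ratio and Igfbp4 between 0.956 and 1.200 wherever they were measured.

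Of the other ligands, receptors and binding proteins, 0 were higher with the 75th percentile floor and 2 with none, and 2 were lower with the 25th percentile floor or none and 0 with the median over probe sets. Of the signalling genes 1 was higher with no floor, and their median changed sign, to 0.006 or 0.019, under 3 alternatives. Of the list of proteases and their inhibitors 1 was higher with the 25th percentile floor and 2 with none, 6 were lower with either and 1 with the 75th, and the median was -0.727 with the 25th. With the median over probe sets, or without _s_at, _x_at and _a_at probe sets, 2 of this list were lower. Of the FOXO targets 3 were higher with no floor and 1 was lower with the 75th percentile floor. Among all genes, 1120 were higher and 934 lower with the 25th percentile floor, 49 and 106 with the 75th, and 2229 and 1901 with none, against 190 and 259. The cause of these shifts was not tested beyond what each setting does by construction. Members under 4 times the floor (Insr, Irs1, Irs2, Igfbp5, Igfbp6) are those limited most by signal.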

Other observations

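Igfbp2 and Igfbp5, the members that were at least 2-fold lower by the brightest probe set, Igfbp5 only by one of the type _s_at (log2 ratio 0.01 without the types _s_at and _x_at), are next to each other on mouse chromosome 1, with 0 protein-coding genes between them in the RefSeq table. The values of the 3 nearest measured protein-coding genes on each side were looked up after this was seen. Their log2 ratios ran from -0.10 to 1.06. On the Igfbp2 side Xrcc5, a DNA repair gene, read 1043 and 1110, the chromatin remodelling gene Smarcal1 read 191.7 and 306.6, and the ribosomal protein gene Rpl37a read 30915 and 33051. On the Igfbp5 side the focal adhesion gene Tns1 read 88.7 and 184.5 (2.08-fold higher) by a low-signal probe set of the type _s_at. The log2 ratios of the measured Tns1 probe sets ran from 0.25 to 1.11. The actin nucleation gene Arpc2 read 22558 and 22066.5, and Aamp read 2840 and 2645. None of the 6 flanking genes was at least 2-fold lower, beside 2.23% of all measured genes. With so small a share, 6 genes say little about the region, and a link between position and these ratios was not tested.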
